A study of Homo sapiens with 9 samples.

Results

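A set of 9 genes that encode secreted factors acting on blood or lymph vessels was followed in A375, a human melanoma cell line that carries an activating BRAF mutation. They were found by gene symbol in a table of read counts, and all 9 were present among 20463 annotated genes and passed the filter on low counts, which left 13968 genes for testing. Their names are *VEGFA*, *VEGFB*, *VEGFC* and *PGF* of the vascular endothelial growth factor (VEGF) family, and *ADM*, *ESM1*, *ANGPTL4*, *STC1* and *STC2*. Messenger RNA was sequenced from 3 groups of 3 libraries each. The control cells were untreated, and the other groups were kept for 48 h with 100 µM or 200 µM of Salvianolic acid B (SalB), which is a polyphenol from danshen root. All groups shared the same medium with fetal bovine serum, and the labels put all 9 libraries in 1 batch. A single line in culture holds no vessels, so the data give the tumour cells' own transcripts and not what these factors do to an endothelium. In such bulk libraries fewer cells of one state and less RNA per cell cannot be told apart.

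VEGF family ligands bind receptor tyrosine kinases on endothelial cells. VEGF-A drives sprouting and permeability through VEGFR2, VEGF-B and placental growth factor bind VEGFR1, and VEGF-C acts mainly on lymphatic vessels through VEGFR3. Adrenomedullin relaxes and stabilises vessels, endocan (*ESM1*) is a secreted dermatan sulfate proteoglycan, angiopoietin-like 4 inhibits lipoprotein lipase and alters vessel permeability, and the stanniocalcins are secreted glycoproteins tied to calcium and phosphate balance. Hypoxia-inducible factor (HIF) is a known inducer of several of these genes in tumours. It binds a short core sequence in or near its targets.

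Sequences before an annotated start of a few of these genes are shown because HIF, NF-kB, AP-1 and ATF4 sites are the elements usually searched for in them. RefSeq promoter sequence (GRCh38.p14) was matched for 7 of the 9 genes, all but *VEGFA* and *STC1*. The 250 bases before the annotated start were searched on both strands for the HIF cores ACGTG and GCGTG, for the AP-1 site TGANTCA, the ATF4 site TTGCATCA, the cyclic AMP element TGACGTCA and the kappaB consensus. The genes printed are *ESM1*, which had the largest fall, *ADM*, which had one of the largest rises, and *STC2*, which held the most HIF cores. Their RefSeq starts differ from the ends of the gene spans given below, which come from GENCODE v29. All the printed windows lie inside those spans. Capitals mark matches to any of these motifs.
ESM1 (minus strand, chr5:54985594-54985843): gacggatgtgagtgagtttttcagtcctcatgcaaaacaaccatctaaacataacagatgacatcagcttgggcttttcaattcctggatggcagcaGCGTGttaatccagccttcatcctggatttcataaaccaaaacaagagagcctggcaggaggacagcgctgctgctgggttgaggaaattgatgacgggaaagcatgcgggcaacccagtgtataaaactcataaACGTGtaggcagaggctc
ADM (plus strand, chr11:10304823-10305072): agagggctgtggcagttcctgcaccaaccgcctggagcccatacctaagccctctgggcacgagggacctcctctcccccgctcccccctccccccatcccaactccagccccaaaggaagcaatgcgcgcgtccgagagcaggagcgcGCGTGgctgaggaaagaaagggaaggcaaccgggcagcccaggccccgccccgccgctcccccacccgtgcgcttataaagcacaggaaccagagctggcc
STC2 (minus strand, chr5:173328415-173328664): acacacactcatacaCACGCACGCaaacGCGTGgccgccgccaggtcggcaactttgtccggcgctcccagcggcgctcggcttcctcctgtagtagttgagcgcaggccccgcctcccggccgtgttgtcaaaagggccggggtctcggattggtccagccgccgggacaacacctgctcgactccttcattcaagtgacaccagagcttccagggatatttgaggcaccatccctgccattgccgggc

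*ESM1* held 1 ACGTG and 1 GCGTG, *ADM* held 1 GCGTG, and *STC2* held 3 GCGTG cores, 2 of them on the opposite strand and sharing 1 base. Of the 7 genes, 2 had an ACGTG (*ESM1* and *ANGPTL4*) and 6 had a GCGTG in this window or, for *PGF*, in either of its 2 annotated windows. Over 27305 promoters of the same length, with 1 window per gene, 18.7% held ACGTG and 31.9% held GCGTG. The *PGF* window counted there held no GCGTG, and its match lay in the other window. A kappaB match was present in *VEGFC*, against 9.57% of all promoters, and no match to the AP-1, ATF4 or cyclic AMP motifs was present in the 7 genes, against 6.6%, 0.82% and 1.77% of promoters. A match is a description of the letters, and the files hold no measurement of binding.

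Libraries held 27348621 to 30629685 counts, and a library's value for one of the 9 genes rests on 59 to 6460 reads. The labels name the replicates as biological. Each p-value sets a difference against the spread between libraries, estimated for each gene from all groups together. A library of 1 group can thus alter the calls of a comparison that does not include it. One library, 200 µM replicate 3, stood apart: mitochondrially encoded mRNAs took 4.69% of its counts, against 1.81% and 1.85% in the other libraries of its group. The level of GC-rich against GC-poor transcripts, set to the control mean and given as a log2 gap, was -0.26 in that library, 0.56 to 1.02 in the other libraries at 200 µM, 0.71 to 0.98 at 100 µM and -0.17 to 0.18 in control. The label of the line was checked against markers. Of 12 melanocyte and melanoma markers 9 exceeded 1 CPM (counts scaled to library size) in a library. *SOX10*, a neural crest and melanocyte factor, lay between 323 and 552 CPM, and *MITF* between 15.5 and 31.5. The pigment genes *TYR*, *MLANA* and *PMEL* did not exceed 0.693 CPM in any library, and *DCT* reached at most 1.31. Of 8 endothelial markers 3 exceeded 1 CPM in a library, namely *KDR* (up to 11.2 CPM), *PECAM1* (up to 2.94) and *VWF* (up to 1.22), while *CDH5*, *EMCN* and *ERG* reached at most 0.0675, 0.13 and 0.32 CPM. The summed level of the endothelial list, mostly *KDR*, was 11.4 to 13.0 CPM in control, 4.46 to 4.73 at 100 µM and 11.1 to 12.7 at 200 µM. Of 6 leukocyte markers 2 exceeded 1 CPM and *CD3E* had no reads, while the summed level of the list, mostly *CD68*, was 21.4 to 24.9 CPM in control, 17.9 to 19.8 at 100 µM and 57.9 to 84.1 at 200 µM. Summed levels of 6 fibroblast markers were 18.0 to 19.5, 49.2 to 52.7 and 24.2 to 30.6 CPM, and those of 6 epithelial markers 235 to 244, 311 to 344 and 299 to 396 CPM. The fibroblast sums were mostly *PDGFRB* and *LUM*, and *COL1A2* and *COL3A1* reached at most 0.139 and 0.169 CPM. The epithelial sums were mostly *KRT18* and *KRT8*, and *EPCAM*, *CDH1* and *KRT19* reached at most 0.32, 0.389 and 0.169 CPM. Refits with the GC trend removed or without 200 µM replicate 3 are given below. Beyond these, the part of such differences in the results on the 9 genes was not tested.

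In untreated cells *ESM1* was by far the most abundant of the 9 transcripts per length. Levels were compared as RPKM, read counts scaled to library size and to the length of the longest coding transcript, as mean ± SD of n = 3 libraries. *ESM1* was at 98.4 ± 7.21, followed by *VEGFA* at 17.2 ± 0.158, *VEGFB* at 15.8 ± 1.14 and *ADM* at 14.1 ± 0.279. *STC1* was at 10.1 ± 0.642 and *ANGPTL4* at 5.67 ± 0.633. The lowest were *VEGFC* (2.86 ± 0.324), *STC2* (2.63 ± 0.0969) and *PGF* (1.24 ± 0.223). The ranges of the 3 libraries overlapped between *VEGFA* (17.0 to 17.4) and *VEGFB* (14.9 to 17.1), and between *VEGFC* and *STC2*, so the order within these pairs is not resolved. *VEGFA* has 26 annotated coding transcripts, and a shorter assumed transcript would raise its value.

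SalB rearranged that order. At 100 µM *VEGFB* was the most abundant at 23.5 ± 2.04 RPKM, and *ESM1* stood at 3.72 ± 0.0108. At 200 µM *ADM* was first at 46.5 ± 0.802 RPKM, *VEGFA* was at 25.5 ± 1.74 and *VEGFB* at 21.9 ± 2.31, and *ESM1* was at 11 ± 1.47. *STC1* was the lowest of the 9 at both doses, at 0.96 ± 0.19 and 1.12 ± 0.0977 RPKM. Several neighbours in these orders overlapped: *VEGFC* with *ESM1* and *ANGPTL4* at 100 µM, and *VEGFC*, *PGF*, *STC2* and *ANGPTL4*, between 2.13 and 6.37 RPKM, at 200 µM.

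**Figure D1:**
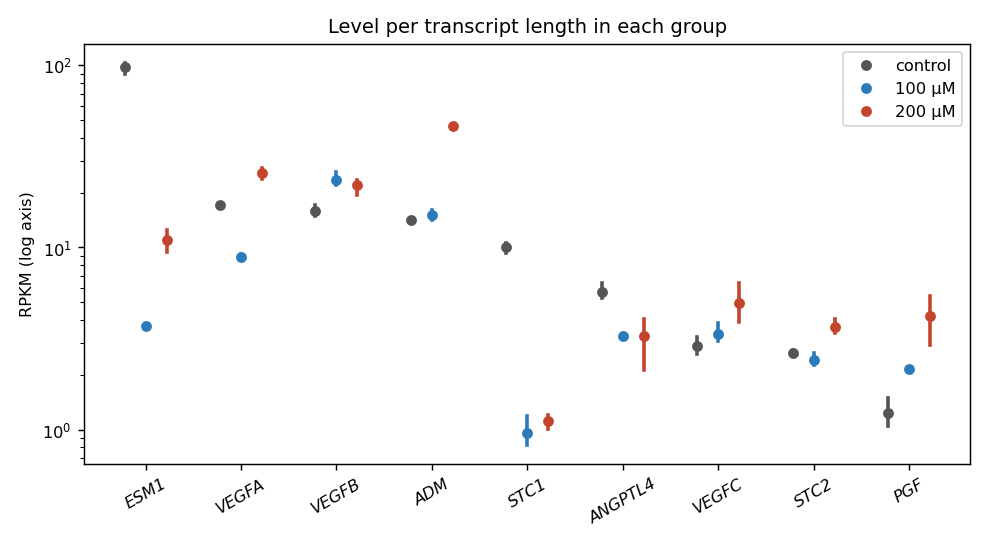
RPKM (log axis) of the 9 genes in control, 100 µM and 200 µM SalB; points are means of 3 libraries and bars span the lowest to the highest library. *ESM1* leads in control at 98.4, *VEGFB* at 100 µM at 23.5 and *ADM* at 200 µM at 46.5.

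In the authors' deposited table of expression values for 100 features, read here as FPKM from the size of the values, 3 of the 9 genes were listed. In the authors' deposited table *ESM1* was at 109 to 120 in control, 5.11 to 5.54 at 100 µM and 12.6 to 13.5 at 200 µM. In the authors' deposited table *STC1* was at 8.54 to 9.56 in control, 0.784 to 1.12 at 100 µM and 0.913 to 1.04 at 200 µM. *ADM* was listed in the authors' deposited table at 14.3 to 15, 15.9 to 17.7 and 44.8 to 50.0. The rule by which those features were picked is not stated.

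The comparisons asked which of these transcripts each dose changed and whether the doses differed. At 100 µM, 6 of the 9 genes passed an adjusted p under 0.05 in the edgeR quasi-likelihood test, 2 higher and 4 lower; over all 13968 genes tested 37.1% passed, 18.9% higher and 18.2% lower. All 9 passed at 200 µM, 6 higher and 3 lower, against 37.3% of all genes, 19.8% higher and 17.5% lower. Between the doses 6 passed, all 6 higher at 200 µM, against 44.4% of all genes, 22.4% higher and 21.9% lower. The median log2 fold change of the 9 genes was -0.13 at 100 µM, 0.48 at 200 µM and 0.60 between the doses, beside medians of -0.01, 0.00 and -0.01 over all genes. Both dose comparisons use the same control libraries and are therefore not independent of each other. Because the 9 genes were chosen with earlier results of these data known, these shares describe them and do not test them as a group.

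**Figure D2:**
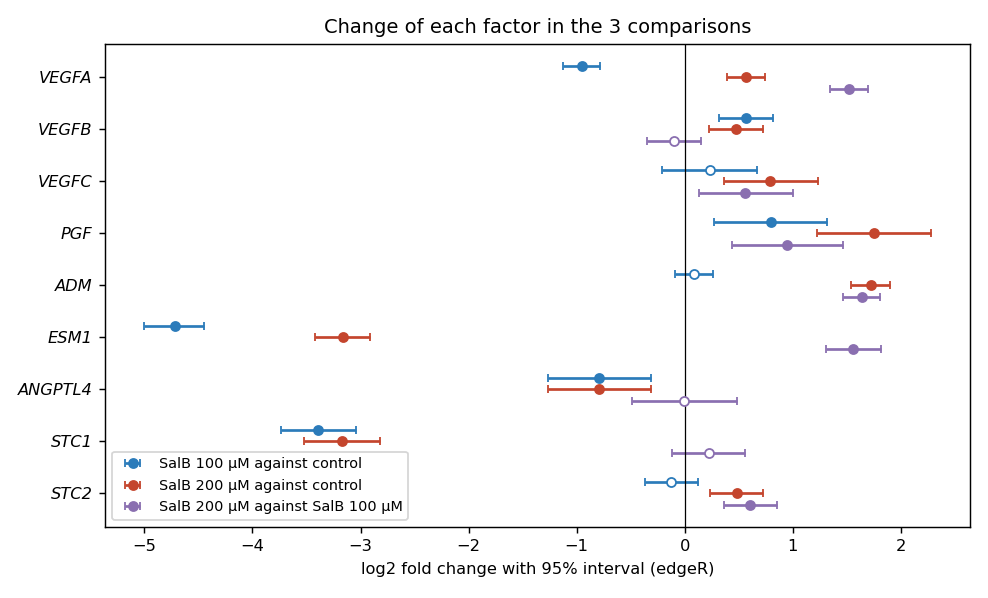
Log2 fold change (edgeR) of each gene in the 3 comparisons with its 95% interval; filled points passed an adjusted p under 0.05 and open points did not. *ESM1* and *STC1* lie furthest to the left at both doses, *VEGFA* is below 0 at 100 µM and above it at 200 µM, and the interval of *ADM* includes 0 at 100 µM but not at 200 µM.

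*VEGFA* (ENSG00000112715, protein-coding, GRCh38 chromosome 6, 43770184 to 43786487) encodes the main ligand for VEGFR2. It moved in opposite directions at the 2 doses. Control libraries gave 61.0, 60.2 and 61.3 CPM, those at 100 µM gave 32.5, 30.9 and 30.8, and those at 200 µM gave 90.1, 84.0 and 96.3. The 3 groups did not overlap, with the lower dose below control and the higher dose above it. *VEGFA* was 1.94-fold lower at 100 µM (log2 fold change -0.95 ± 0.08 SE, edgeR adjusted p = 4e-05) and 1.48-fold higher at 200 µM (0.57 ± 0.08, adjusted p = 0.00053). The difference between the doses was 2.87-fold (1.52 ± 0.08, adjusted p = 1.4e-06), and all 3 calls held under each of the alternative settings run.

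*VEGFB* (ENSG00000173511, chromosome 11, 64234538 to 64238793), encoding a VEGFR1 ligand, was higher at both doses. Its libraries gave 23.6, 20.5 and 21.4 CPM in control, 35.7, 31.1 and 30.5 at 100 µM, and 32.5, 31.6 and 26.6 at 200 µM. Both treated groups lay above control, and they overlapped each other. The rise was 1.49-fold at 100 µM (0.57 ± 0.11, edgeR adjusted p = 0.0040) and 1.39-fold at 200 µM (0.47 ± 0.11, adjusted p = 0.0097). The doses were not distinguished (-0.10, 95% interval -0.35 to 0.15, adjusted p = 0.49; 0.18 and adjusted p = 0.24 with the GC trend removed). *VEGFB* has the highest GC content of the 9, at 66.7%, and with library GC trends taken out the call at 100 µM was lost (0.16, adjusted p = 0.32). At 200 µM it gave 0.34 (adjusted p = 0.042), and 0.23 with 200 µM replicate 3 left out as well (adjusted p = 0.043), but with the GC trend removed and a replicate block it no longer passed (0.34, adjusted p = 0.067).

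*PGF* (ENSG00000119630, chromosome 14, 74941834 to 74955784), encoding placental growth factor, was the least abundant transcript in control. It had 2.29, 2.03 and 2.87 CPM in control, 4.14, 4.12 and 4.25 at 100 µM, and 8.12, 10.5 and 5.60 at 200 µM, where the lowest was replicate 3. The groups did not overlap and the level was higher at each dose. *PGF* was 1.74-fold higher at 100 µM (0.80 ± 0.23, edgeR adjusted p = 0.025), 3.36-fold higher at 200 µM (1.75 ± 0.23, adjusted p = 0.00048) and 1.93-fold higher at 200 µM than at 100 µM (adjusted p = 0.0080). The call at 100 µM rests on 59 to 131 reads a library, and counting error alone is 13.0% at the lowest of these. It was lost without any 1 library at 100 µM, without control replicate 1 or without control replicate 2, with adjusted p-values of 0.061 to 0.094.

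*VEGFC* (ENSG00000150630, chromosome 4, 176683538 to 176792727), encoding the lymphatic ligand, rose at 200 µM. Libraries gave 6.65, 5.68 and 5.37 CPM in control, 7.93, 6.55 and 6.29 at 100 µM, and 8.09, 9.47 and 13.1 at 200 µM, where the highest value came from replicate 3. Control and 100 µM overlapped, and the libraries at 200 µM lay above both. *VEGFC* was 1.73-fold higher than control at 200 µM (0.79 ± 0.19, edgeR adjusted p = 0.011; 0.59 and adjusted p = 0.0079 without replicate 3). At 100 µM it did not pass (0.23, 95% interval -0.21 to 0.67, adjusted p = 0.38). The difference between the doses, at 0.56 ± 0.19 (adjusted p = 0.040), was 0.33 (adjusted p = 0.088) without 200 µM replicate 3, and did not pass without any 1 of the control libraries or without 100 µM replicate 2 or 3, with adjusted p-values of 0.053 to 0.13. Together the 4 VEGF family genes changed unequally: for each *VEGFA* read there were 0.340 to 0.387 *VEGFB* reads in control, 0.989 to 1.1 at 100 µM and 0.276 to 0.377 at 200 µM.

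*ADM* (ENSG00000148926, chromosome 11, 10304680 to 10307397), encoding adrenomedullin, rose at the higher dose. It was at 26.8, 26.0 and 27 CPM in control, 30.2, 28.1 and 26.6 at 100 µM, and 89.5, 87.6 and 86.5 at 200 µM. Control and 100 µM overlapped, and the 3 libraries at 200 µM lay close together far above them. *ADM* was 3.30-fold higher than control at 200 µM (1.72 ± 0.08, edgeR adjusted p = 1.8e-06) and 3.11-fold higher than at 100 µM (1.64 ± 0.08, adjusted p = 1.1e-06). The difference at 100 µM was 0.09, with a 95% interval of -0.09 to 0.26 (adjusted p = 0.42). With the GC trend removed it was -0.19 (adjusted p = 0.17), and with 200 µM replicate 3 left out as well it was -0.16 and passed (adjusted p = 0.033).

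*ESM1* (ENSG00000164283, chromosome 5, 54977864 to 55022671), encoding endocan, had the largest change of the 9. Control libraries gave 222, 223 and 195 CPM. At 100 µM the values were 8.09, 8.05 and 8.07 CPM, and at 200 µM they were 23.9, 20.6 and 27. The groups did not overlap, and the lowest level was at the lower dose. *ESM1* was 26.4-fold lower at 100 µM (-4.72 ± 0.12, edgeR adjusted p = 5.9e-08) and 8.95-fold lower at 200 µM (-3.16 ± 0.11, adjusted p = 5.6e-07). It was 2.95-fold higher at 200 µM than at 100 µM (1.56 ± 0.11, adjusted p = 9e-06), so the fall was smaller at the higher dose. Over the alternatives its log2 fold change stayed between -4.78 and -4.40 at 100 µM and between -3.25 and -2.99 at 200 µM.

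*STC1* (ENSG00000159167, chromosome 8, 23841915 to 23854807), encoding stanniocalcin 1, fell at both doses. Control libraries gave 41.0, 39.9 and 36.3 CPM, those at 100 µM 3.40, 4.57 and 3.21, and those at 200 µM 4.46, 3.92 and 4.65. The treated groups overlapped each other and lay far below control. *STC1* was 10.5-fold lower at 100 µM (-3.39 ± 0.15, edgeR adjusted p = 2.1e-06) and 9-fold lower at 200 µM (-3.17 ± 0.15, adjusted p = 2.2e-06). The difference between the doses was 0.22, with a 95% interval of -0.12 to 0.56 (adjusted p = 0.27).

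Its paralog *STC2* (ENSG00000113739, chromosome 5, 173314713 to 173329503), encoding stanniocalcin 2, rose at 200 µM and did not pass at 100 µM. *STC2* gave 13.9, 14.6 and 13.6 CPM in control, 12.4, 12.2 and 14 at 100 µM, and 18.9, 21.6 and 18.2 at 200 µM. Control and 100 µM overlapped (-0.13, 95% interval -0.37 to 0.12, edgeR adjusted p = 0.39), and the libraries at 200 µM lay above both. The rise at 200 µM was 1.39-fold over control (0.48 ± 0.11, adjusted p = 0.0076) and 1.52-fold over 100 µM (0.60 ± 0.11, adjusted p = 0.0018). The pair thus moved apart: there were 0.339 to 0.376 *STC2* reads for each *STC1* read in control, 2.66 to 4.37 at 100 µM and 3.91 to 5.53 at 200 µM.

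*ANGPTL4* (ENSG00000167772, chromosome 19, 8363289 to 8374373), encoding the lipoprotein lipase inhibitor, was lower at both doses. Libraries gave 9.88, 10.1 and 12 CPM in control, 6.29, 5.94 and 6.26 at 100 µM, and 6.78, 7.62 and 4.01 at 200 µM, the lowest again being replicate 3. Both treated groups lay below control. *ANGPTL4* was 1.73-fold lower at 100 µM (-0.79 ± 0.21, edgeR adjusted p = 0.018) and 1.73-fold lower at 200 µM (-0.79 ± 0.21, adjusted p = 0.017). The log2 difference between the doses was -0.0041, with a 95% interval of -0.49 to 0.48 (adjusted p = 0.99), and it was 0.22 without 200 µM replicate 3 and 0.19 with the GC trend removed (adjusted p = 0.19 in both). Without replicate 3 the fall at 200 µM was -0.55 (adjusted p = 0.0049). The call at 100 µM was lost without control replicate 3 or without any 1 library at 100 µM, with adjusted p-values of 0.055 to 0.070, and at 200 µM without control replicate 3 (0.064) or with only the 2 groups compared (0.052).

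**Figure D3:**
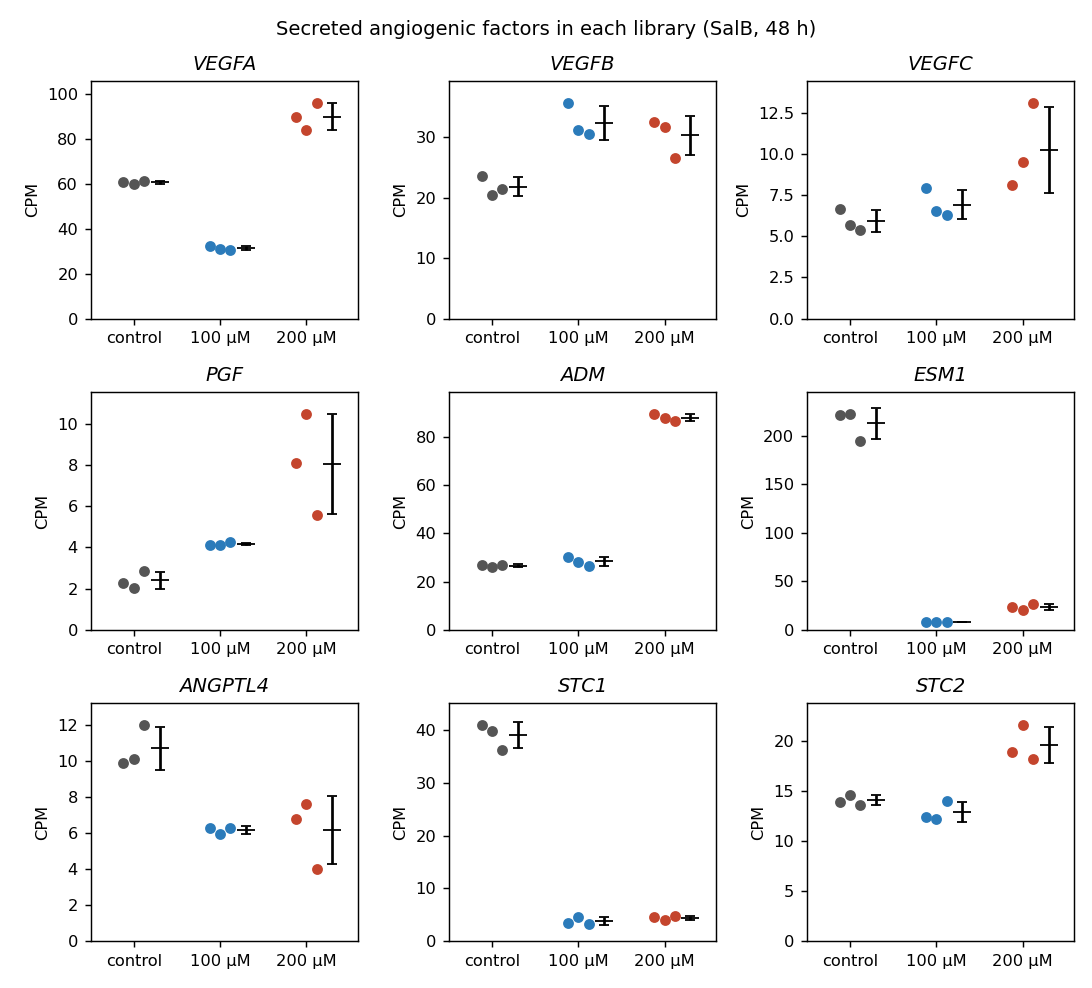
CPM of each gene in the 9 libraries (points, replicates 1 to 3 from left to right within a group), with the mean and SD of n = 3 beside them; each axis starts at 0. *ESM1* and *STC1* drop at both doses, and *ADM* rises at 200 µM. Replicate 3 at 200 µM is the highest of its group for *VEGFA*, *VEGFC*, *ESM1* and *STC1* and the lowest for the other genes.

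**Figure D4:**
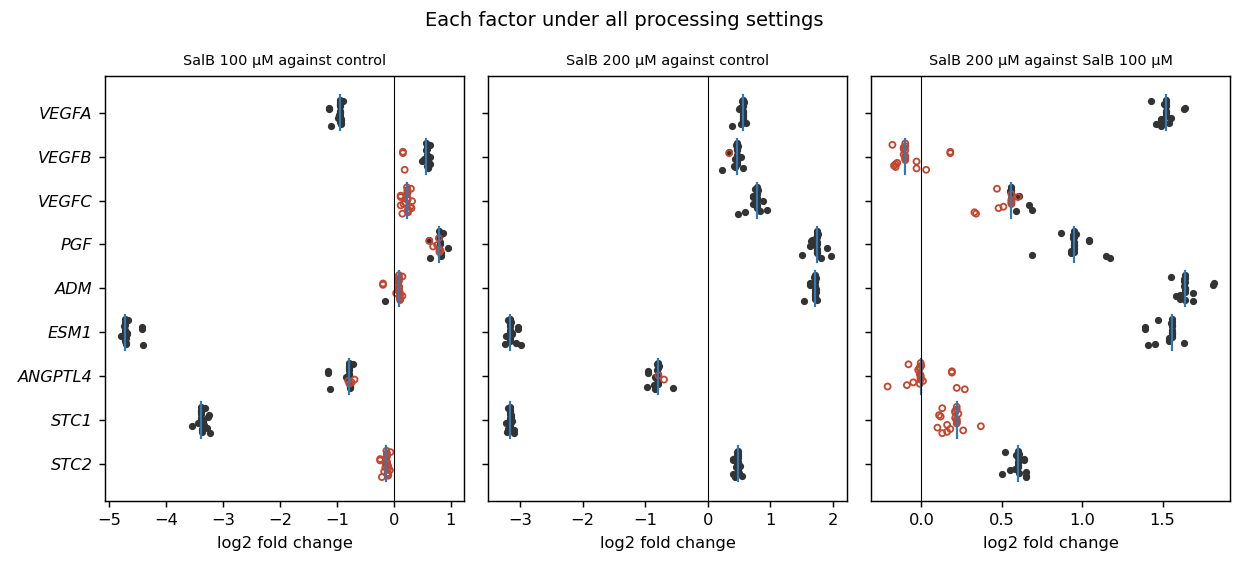
Log2 fold change of each gene in the 3 comparisons under the main setting and 19 alternatives; blue lines mark the main value, filled points passed an adjusted p under 0.05 and open red points did not. Against control only *ADM* at 100 µM has points on both sides of 0, and *VEGFA*, *ESM1* and *STC1* have filled points only. Filled and open points mix for *VEGFB*, *PGF*, *ADM* and *ANGPTL4* at 100 µM, *VEGFB* and *ANGPTL4* at 200 µM, and *VEGFC* between the doses.

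For the related gene lists that follow, the shares of all genes called and the medians given above are the background. The receptors of these ligands are made mainly by endothelial cells, and their transcripts were low to moderate here. Of 5 listed VEGF receptors and co-receptors 4 were tested, and *FLT4* was filtered out. At 100 µM 2 were higher and 1 was lower, and at 200 µM also 2 were higher and 1 was lower. That last count was 0 to 2 over the 19 alternatives and differed from 1 in 16 of them. *KDR*, encoding VEGFR2, fell from 10.3 ± 0.892 to 2.70 ± 0.315 CPM at 100 µM (3.81-fold, edgeR adjusted p = 2.9e-05) and was at 8.08 ± 0.993 CPM at 200 µM (adjusted p = 0.077), where it passed under 4 alternatives, among them leaving out 200 µM replicate 3 (-0.44, adjusted p = 0.019). *NRP2*, a co-receptor for VEGF-C, rose from 70.2 ± 1.17 to 84.5 ± 3.74 CPM at 100 µM (adjusted p = 0.016; 0.065 to 0.07 when 100 µM replicate 1 or either of control replicates 1 and 2 was left out) and to 145 ± 5.78 CPM at 200 µM (2.07-fold, adjusted p = 1.2e-05). *NRP1*, a co-receptor for VEGF-A, was 1.60-fold higher at 100 µM (adjusted p = 0.0025) and 1.27-fold lower at 200 µM (adjusted p = 0.048), a call lost under 12 of 19 alternatives.

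Among the parts of the adrenomedullin system 3 of 6 listed genes were tested. The receptor parts *RAMP2* and *RAMP3* and the scavenger *ACKR3* were filtered out, at 0.145 CPM or less in every library, so the receptor was covered only in part. *RAMP1*, a receptor activity modifying protein, fell from 27.8 ± 3.10 to 7.25 ± 0.233 CPM at 100 µM (edgeR adjusted p = 0.0004) and was at 19.2 ± 6.59 CPM at 200 µM (-0.53, adjusted p = 0.099). The latter difference was -0.26 (adjusted p = 0.055) without 200 µM replicate 3, -0.71 (0.046) without 200 µM replicate 2 and -0.72 (0.00049) with the GC trend removed. The related peptide gene *ADM2* rose with *ADM* at 200 µM, from 1.07 ± 0.245 to 3.80 ± 0.841 CPM (3.53-fold, adjusted p = 0.0020). *CALCRL*, a receptor part like *RAMP2* and *RAMP3*, was tested and did not pass at either dose (edgeR adjusted p = 0.91 and 0.23).

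Related ligands were mostly low. Of 8 other VEGF and angiopoietin-like family genes 4 were tested. *ANGPTL2* was 1.47-fold and 1.53-fold higher at 100 µM and 200 µM (edgeR adjusted p = 0.0059 and 0.0034; 0.064 at 100 µM with the GC trend removed), and *ANGPTL1* was 2.27-fold higher at 100 µM and 2.64-fold lower at 200 µM (adjusted p = 0.010 and 0.0067). *VEGFD*, a further lymphatic ligand, rose at 200 µM from 0.184 ± 0.113 to 0.684 ± 0.112 CPM (adjusted p = 0.0089), a level of few reads. Of the angiopoietin system *ANGPT1* and *TIE1* were tested, and *TIE1*, an orphan receptor kinase, went from 9.57 ± 0.945 to 20.3 ± 1.07 CPM at 100 µM and 3.78 ± 0.764 CPM at 200 µM (adjusted p = 0.00075 and 0.00027).

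The shares of other secreted pro-angiogenic factors called higher or lower were near those of all genes. Of 20 tested pro-angiogenic factors outside the 9 genes, 4 were higher and 4 lower at 100 µM, with a median log2 fold change of 0.05, and 5 were higher and 5 lower at 200 µM, with a median of -0.03. With 1 library left out these counts were 2 to 7 and 1 to 6 at 100 µM, and 2 to 5 and 4 to 6 at 200 µM; at 100 µM the 7 came without 200 µM replicate 3, and 1 was lower without control replicate 2, 100 µM replicate 1 or 100 µM replicate 2. *CCN1*, a matricellular protein, rose 2.19-fold at 100 µM and 6.60-fold at 200 µM (edgeR adjusted p = 2.7e-05 and 3.1e-07). *CXCL8*, encoding interleukin-8, was 45.4-fold and 27.4-fold lower (adjusted p = 1.3e-06 and 1.9e-06), and *TGFA*, an EGF receptor ligand, fell 3.12-fold at 200 µM (adjusted p = 2.7e-06). Of 14 tested genes listed as inhibitors of angiogenesis 5 were higher and 5 lower at 100 µM (median 0.36), and 7 were higher and 2 lower at 200 µM (median 0.26). The 7 higher include *VASH2* (log2 fold change 1.37, edgeR adjusted p = 0.00034), which unlike *VASH1* is not a clear inhibitor. The 5 lower were 2 without 100 µM replicate 2 and 3 without any 1 control library or 100 µM replicate 3, and the 2 lower at 200 µM were 1 without control replicate 2 or 200 µM replicate 1. *THBS1*, encoding thrombospondin 1, was 6.52-fold and 6.39-fold higher at the 2 doses (adjusted p = 3.7e-08 and 1.2e-07), and *TIMP2*, a metalloproteinase inhibitor, was 1.66-fold and 1.92-fold higher. *ADAMTS1*, a metalloprotease with anti-angiogenic repeats, fell 4.29-fold at 100 µM (adjusted p = 8.5e-06) and was at 19.2 ± 1.58 CPM at 200 µM against 19.6 ± 1.84 CPM in control.

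HIF targets other than the 9 genes were mostly lower at 100 µM. Of 25 tested, 17 were lower and 2 higher at 100 µM (median log2 fold change -0.60), 8 lower and 6 higher at 200 µM (median -0.15), and 13 were higher and 1 was lower at 200 µM than at 100 µM. With 1 library left out the 17 lower ranged from 12 to 18, and the 8 lower at 200 µM from 6 to 11. *NDRG1*, a hypoxia-responsive gene, followed the course of *VEGFA*: 168 ± 1.74 CPM in control, 56.0 ± 4.42 at 100 µM and 262 ± 19.0 at 200 µM, 3.01-fold lower and 1.55-fold higher (edgeR adjusted p = 5.7e-06 and 0.00046). *BNIP3*, a mitophagy receptor, and *P4HA1*, a collagen prolyl hydroxylase, fell at both doses, by 4.09-fold and 1.77-fold, and by 2.26-fold and 1.52-fold. Oxygen was not measured. *VLDLR* stands in both this list and that of ATF4 genes.

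Of 10 tested HIF subunits and regulators, 1 was higher and 1 lower at 100 µM, and 5 were higher at 200 µM. With 1 library left out these were 0 to 3, 1 to 4 and 3 to 6, the 3 and 4 at 100 µM both without 200 µM replicate 3, and the 3 at 200 µM without control replicate 1, control replicate 3, 100 µM replicate 2 or 200 µM replicate 1. *EPAS1*, encoding HIF-2 alpha, rose from 4.61 ± 0.371 to 10.7 ± 1.21 CPM at 200 µM (edgeR adjusted p = 0.00019), and *CITED2*, a HIF-inducible inhibitor of its coactivator, from 19.8 ± 0.545 to 59.1 ± 12.6 CPM (adjusted p = 6.6e-05). *EGLN1*, the oxygen-sensing prolyl hydroxylase, was 1.79-fold lower at 100 µM (adjusted p = 0.00014). *HIF1A* itself did not pass at either dose (0.04 and 0.48, adjusted p = 0.91 and 0.11).

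ATF4 is a stress factor that can induce *VEGFA*, and PPAR receptors are known inducers of *ANGPTL4*. Of 15 ATF4 genes 2 were higher and 5 lower at 100 µM, and 7 were higher and 1 was lower at 200 µM. The count of 2 differed under 15 of 19 alternatives, being 4 without 200 µM replicate 3 and 1 without 200 µM replicate 1 or any 1 library of control or 100 µM, and the 5 lower ranged from 4 to 8. *ATF4* itself was lower at 100 µM (-0.26, edgeR adjusted p = 0.022) and did not pass at 200 µM (-0.11, adjusted p = 0.27). The 1 lower at 200 µM was *PSAT1* (-0.58, adjusted p = 0.0028). *NUPR1*, a stress-induced coregulator, rose 8.67-fold at 200 µM, to 7.97 ± 0.640 CPM (edgeR adjusted p = 2e-05). *CHAC1*, a glutathione-degrading enzyme, rose 2.26-fold there (adjusted p = 0.00064), and at 100 µM it was lower with the GC trend removed (-0.58, adjusted p = 0.0027) against -0.22 (0.34). *DDIT3*, encoding CHOP, was 1.95-fold lower at 100 µM and 3.42-fold higher at 200 µM, with 27.2% of its exons shared with *MARS* on the other strand, and with no strand setting stated the reads of the pair cannot be told apart. Of 10 tested PPAR genes 5 were higher and 2 lower at 100 µM, and 5 were higher and 1 was lower at 200 µM, or 3 higher without control replicate 1 and 2 lower without 200 µM replicate 2 or 3. *PPARA* rose 1.48-fold and 2.81-fold, *PLIN2*, a lipid droplet protein, was 1.34-fold lower and 1.59-fold higher, and the fatty acid carrier *CD36* fell 15-fold and 3.94-fold. *PPARG* did not pass at either dose (-0.15 and -0.05, edgeR adjusted p = 0.24 and 0.7).

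**Figure D5:**
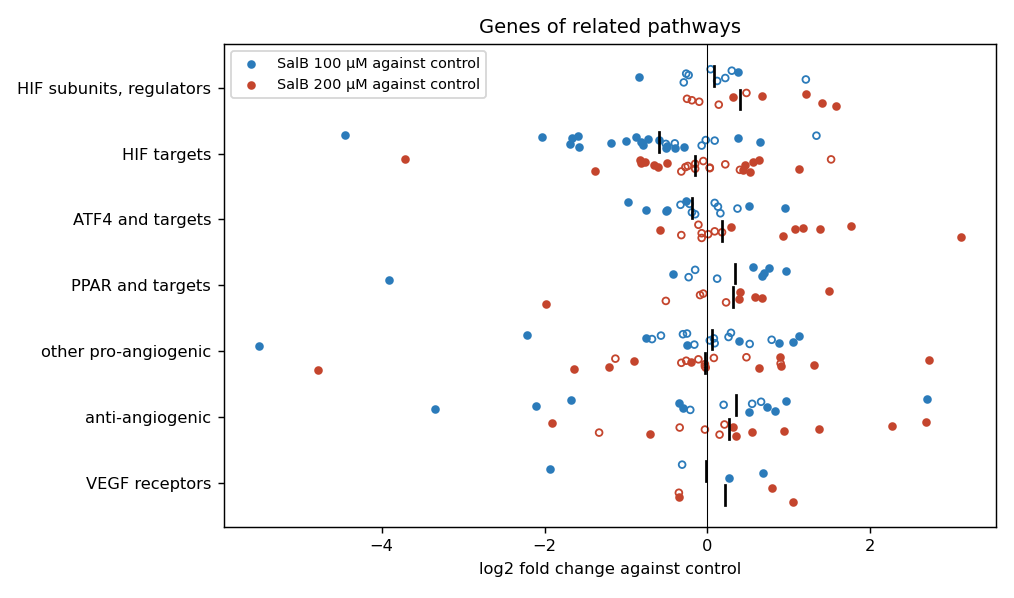
Log2 fold change against control of the tested genes in 7 related lists, with 100 µM in blue and 200 µM in red; filled points passed an adjusted p under 0.05 in edgeR, open points did not, and black bars are list medians. The HIF targets lie mostly below 0 at 100 µM (median -0.60) and are spread around 0 at 200 µM (median -0.15).

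Genes whose levels ran most like each of the 9 were found by the Pearson correlation of log2 CPM over the 9 libraries, which fall into 3 groups, so that such a value mainly reflects the group means. *VEGFA* was most like *COL19A1* (r = 0.997) and *GEM* (0.996), *ADM* like *KLF2* (0.998) and *RHOB* (0.998), and *ESM1* like *IGFBP3* (0.997) and *FCRLA* (0.994). *STC1* was most like *IL1B* and *IVNS1ABP* (both 0.997), *STC2* like *ALS2CL* (0.987) and *DESI1* (0.979), and *PGF* like *FKBP4* (0.993) and *ELL* (0.992). *VEGFB* ran with *CYP1A1* (0.977) and *PLCB3* (0.968), *VEGFC* with *TOMM34* (0.977) and *TOX4* (0.972), and *ANGPTL4* with *RPL24* (0.985) and *UNC50* (0.984). Likeness in this measure does not depend on the size of the change: *KLF2* went from 3.32 to 3.88 and 45.5 CPM where *ADM* went from 26.6 to 28.3 and 87.9. Among the 9 genes themselves r was highest between *ESM1* and *STC1* (0.96) and lowest, at -0.92, between *VEGFB* and each of these.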

How the data were processed

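Read counts per gene in 9 libraries of A375 cells were deposited by the authors without normalization. FastQC, HISAT2, featureCounts, DESeq2 and GRCh38 are named in the submitters' processing notes; their versions, the annotation release and the strand setting are not stated. The FPKM values deposited by the authors for 100 features were used as a description only. Per the labels' protocols, polyadenylated RNA was captured and libraries were made with a NEBNext Ultra kit.

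The table held 22605 features; 2142 assembled transcripts (1.25% to 1.41% of counts) were left out. Counts were filtered (filterByExpr), scaled by TMM and fitted with edgeR 4.0.16 (R 4.3.3, limma 3.58.1), group as the only term, 6 residual degrees of freedom. The quasi-likelihood test was adjusted by Benjamini-Hochberg over 13968 genes per comparison and called at an adjusted p under 0.05. The SE is the log2 fold change over the square root of F, and 95% intervals use the model's 9.13 degrees of freedom. Alternatives included DESeq2 1.42.0, other filters and scaling, removal of GC trends, a replicate block and leaving out each library. Within groups, libraries differed beyond sampling noise (chi-square per degree of freedom 7.22 to 148).

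Positions, transcript lengths and GC content came from GENCODE v29. Of the 9 genes, *ESM1*, *VEGFA* and *ANGPTL4* share 1.63% of their exons or less with another gene. The 9 genes and 10 related lists were chosen with earlier results of these data known. Named are, of each list, the 3 called genes with the smallest p against control (some lists had fewer), and for each of the 9 genes the 2 most alike.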

Additional observations from a re-analysis of the deposited data

Results flagged for a closer look

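*VEGFA* is singled out because the 2 doses moved it in opposite directions, lower at 100 µM in 3 of 3 libraries and higher at 200 µM in 3 of 3, and the test of the doses against each other passed, with a log2 difference of 1.52 (edgeR adjusted p = 1.4e-06). In the 2 comparisons against control its values were -0.95 and 0.57.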

How the results depend on the processing

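Of 27 results on the 9 genes, each under 19 alternatives, 474 of 513 values kept direction and side of the threshold, 28 no longer passed and 11 changed sign; the cause was not tested. Keeping assembled transcripts, and removing GC trends while leaving out 200 µM replicate 3, were chosen after seeing the data. Higher calls among the 9 genes at 100 µM, 2 in the main setting, numbered 1 with a replicate block, 1 with the GC trend removed, 0 with the GC trend removed and a replicate block (*VEGFB* and *PGF* at adjusted p = 0.37 and 0.05), 1 with the GC trend removed and without 200 µM replicate 3, and 1 to 2 with 1 library left out.

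Over all genes at 100 µM, 4098 were higher and 4319 lower with only the groups compared, against 2640 and 2541. Leaving out 1 library gave 1837 to 4056 higher and 1613 to 3887 lower, the upper values without 200 µM replicate 3. With the GC trend removed and without that library, 4275 were higher at 100 µM, and 4207 were higher and 3727 lower at 200 µM, against 2760 and 2451. With only the groups compared, 2128 were higher and 1747 lower at 200 µM. Leaving out 1 library gave 2027 to 3947 higher and 1692 to 3667 lower at that dose.

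The difference of *ADM* at 100 µM was -0.19 with the GC trend removed, -0.19 with the replicate block as well, and -0.16 (adjusted p = 0.033) with the GC trend removed and 200 µM replicate 3 left out; without that library alone it was 0.11 (adjusted p = 0.16). Between the doses *VEGFB* was 0.18, 0.18 and 0.03 under these 3 settings with the GC trend removed, and *ANGPTL4* 0.19, 0.19 and 0.27, and with 1 library left out *ANGPTL4* ranged from -0.21 to 0.22 (0.01 without 100 µM replicate 1, 0.22 without 200 µM replicate 3). *NUPR1* at 100 µM ranged from -0.01 (without 100 µM replicate 1) to 0.41 with 1 library left out. *ADAMTS1* at 200 µM ranged from -0.09 to 0.05 with 1 library left out, with 0.04 without control replicate 1, 0.05 without 200 µM replicate 3 and 0.0022 with the GC trend also removed.

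Libraries of the same number did not deviate together (9 correlations of -0.16 to 0.03), so no shared effect of the number was seen. With 3 libraries in each group this cannot show whether they were paired. Under the replicate block *PGF* at 100 µM (0.79, adjusted p = 0.054) and *VEGFC* between the doses (0.56, adjusted p = 0.076) no longer passed. Depth limits *PGF* most, at 59 reads in its lowest library.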
